A study of Mus musculus with 6 samples.

Results

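The interferon regulatory factors (IRFs) are a family of transcription factors, and 8 of their genes (Irf1, Irf2, Irf3, Irf4, Irf5, Irf7, Irf8 and Irf9) were followed in the transcriptomic analysis (TA) of mouse kidneys. They were found by their gene symbol in the array annotation, which gave 16 of the 56605 probes that are not controls, 2 per gene. All 16 probes were bright enough to be tested. The TA compared the kidneys of 3 female MRL/MpJ (MRL) mice with those of 3 female MRL/MpJ-Fas lpr/lpr (LPR) mice, all at 6 months of age, with 1 single-colour array per mouse. Both strains carry the MRL/MpJ genome. LPR mice are in addition homozygous for the lpr mutation of Fas, a death receptor of lymphocytes, and serve as a model of lupus nephritis. The mutation is carried in every cell of the animal, and kidney tissue was measured without sorting cells. MRL mice, which have an intact Fas gene, are the controls.

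IRFs share a DNA-binding domain that recognises repeats of GAAA. The target of these repeats in promoters is called the interferon-stimulated response element (ISRE). IRF3, IRF5 and IRF7 rest in the cytoplasm until sensors of nucleic acids lead to their phosphorylation, and then switch on type I interferon genes. IRF9 is the DNA-binding subunit of the complex ISGF3, which carries the signal of the type I interferon receptor to the ISRE. IRF1 is made in response to interferon gamma, whose signal acts through a promoter element called the gamma-activated site (GAS), and activates genes of antigen presentation, whereas IRF2 competes with IRF1 for the same sites. IRF4 and IRF8 are used mainly by leukocytes: IRF4 by plasma cells and activated lymphocytes, IRF8 by macrophages, dendritic cells and B cells. In lupus, the transcripts that interferons induce are well known to be raised in blood and tissue.

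Values are given as normalized log2 intensities, that is the log2 of the spot intensity minus the 75th percentile of its array, so that 0 is the intensity at that percentile. Before this step the 75th percentile was 706 to 942 intensity units. A change is the LPR mean minus the MRL mean on this scale. It was tested by limma over all 39924 tested probes, with a threshold of 0.05 on the adjusted p. Where a gene has several probes, the brightest tested probe stands for it. Probes differ in their response, so levels were compared between mice and not between genes. Tubule genes were bright in all 6 kidneys, as the tissue label says, and 2 of 8 tubule markers were lower in LPR mice. These were Lrp2 (adjusted p = 0.0492 in limma), with 1 of its 5 tested probes lower, and Slc5a2 (adjusted p = 0.0270), with 1 of 2. Among all genes tested, 5.4% were lower. The summed level of the 8 markers, in multiples of the 75th percentile, was 814 to 867 in MRL mice and 644 to 702 in LPR mice. Leukocyte markers differed between the groups. Of 5 markers of all leukocytes, 4 were higher in LPR mice. Ptprc did not pass by its brightest probe, although 5 of its 6 tested probes were higher. The sum of the 5 markers was 5.30 to 8.72 in MRL mice and 32.6 to 39.5 in LPR mice. In tissue RNA, more cells of a type and more transcript per cell cannot be told apart.

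In limma, the transcripts of 6 of the 8 IRF genes were higher in LPR mice and 0 were lower. Irf1, Irf4, Irf5, Irf7, Irf8 and Irf9 rose, and Irf2 and Irf3 did not pass the threshold. Among all 22988 genes tested in the same way, 7.62% were higher and 5.4% were lower. Counted by probe, 11 of the 16 IRF probes were higher and 0 were lower, against 6.53% and 6.17% of all tested probes. The dimmer Irf4 probe, 1 of the 11, was bright enough to be tested through the LPR arrays alone. Of probes well above background on all 6 arrays, 10 of 15 IRF probes were higher, against 2158 of 35999 in all. At an unadjusted p under 0.05, 12 of the 16 IRF probes were higher and 0 lower. Among all 39924 tested probes, 3926 were higher and 8200 lower at that cut-off. In the methods' test 0 IRF probes were lower as well. The median change of the 8 genes was 1.31, and that of all genes was -0.12. Every LPR value lay above every MRL value for 13 of the 16 probes, compared with 11% of all tested probes, and for 0 probes did every LPR value lie below, compared with 26.9%. The groups overlapped in both Irf3 probes and the dimmer Irf5 probe.

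**Figure D1:**
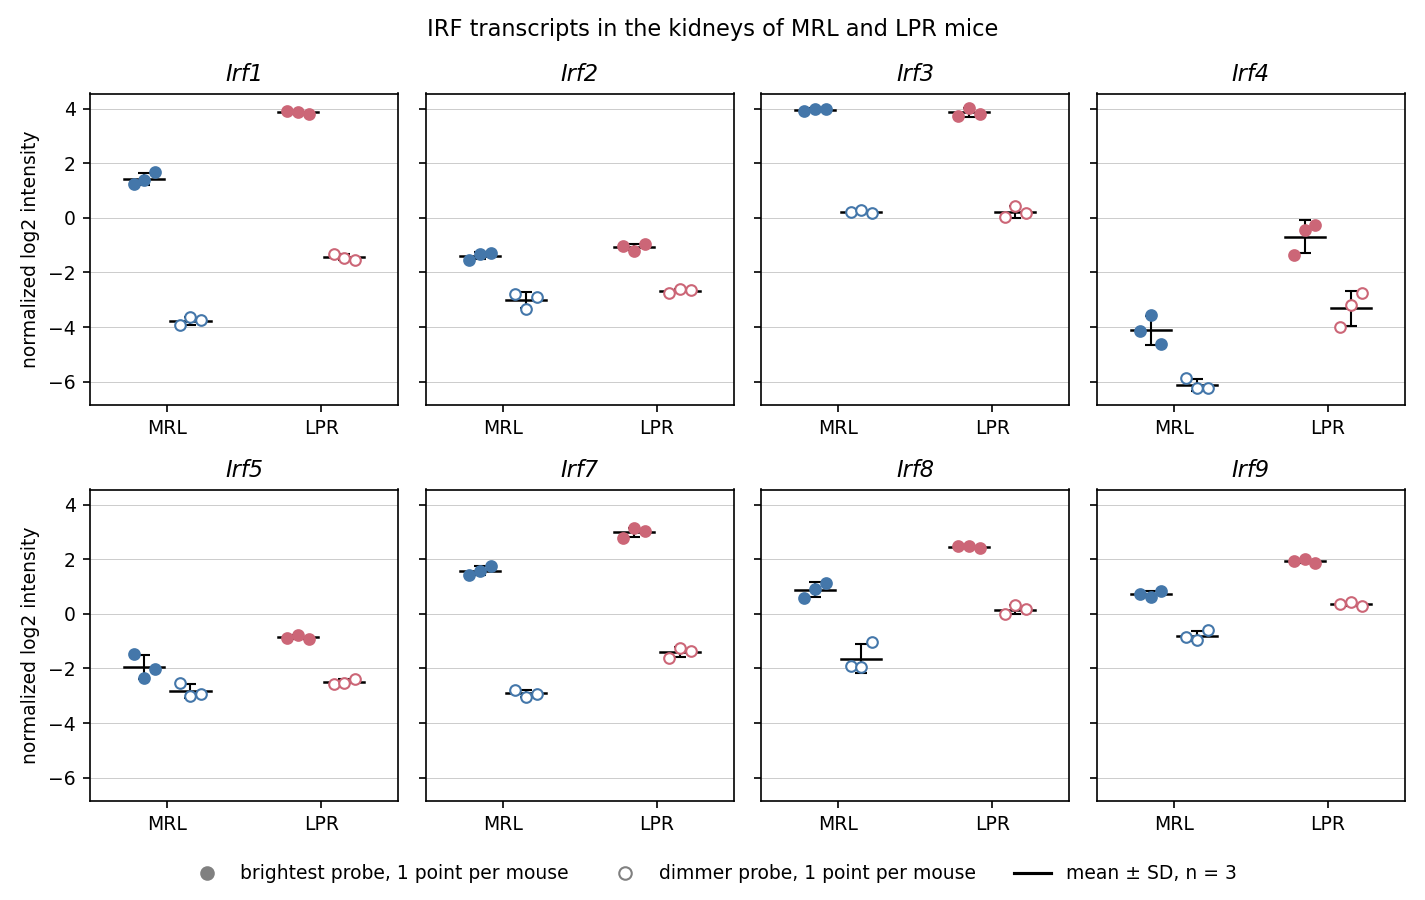
Normalized log2 intensity (y axis) of the 8 IRF genes in 3 MRL mice (blue) and 3 LPR mice (red), with filled points for the brightest probe and open points for the dimmer probe. Lines are means with the SD of 3 mice. The LPR points of Irf1, Irf4, Irf7, Irf8 and Irf9 lie above the MRL points for both probes, while those of Irf3 lie among them.

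Irf1, the factor that interferon gamma induces, had the second largest change of the family. Its brightest probe, A_55_P2000062 (chr11:53590746-53590805 in mm9), gave 1.23, 1.39 and 1.67 in the 3 MRL mice and 3.92, 3.87 and 3.82 in the 3 LPR mice. In intensity units before normalization this was 1728 to 2243 against 10730.2 to 14221. On the normalized log2 scale the LPR values differed by less than the MRL values did. All LPR values lay more than 2 log2 units above the highest MRL value. The mean rose from 1.43 ± 0.22 (SD, n = 3) to 3.87 ± 0.05 (SD, n = 3), a 5.42-fold difference (log2 change 2.44, SE 0.13, adjusted p = 7.15e-05). The dimmer probe, A_52_P175685 (chr11:53587446-53587591), lies 3.30 kb upstream and gave a change of 2.33 (SE 0.12, 5.04-fold). Its coordinates span 146 bases for a probe of 60 bases. With another background correction (normexp), this probe's change was 1.38 and was still called.

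The promoter of Irf1 holds a GAS core, the element of the interferon gamma signal, in RefSeq's GRCm38.p6 sequence. The GAS core TTCNNNGAA begins 90 bases before the start of the gene on chromosome 11, and the window around it (chr11:53769899-53769957, plus strand) is shown with the core in capitals:
Irf1: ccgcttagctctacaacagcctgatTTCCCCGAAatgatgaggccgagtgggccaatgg
The GAS core was found in 8.30% of the 32851 promoters searched, each from 250 bases before to 50 bases after a start. A match describes the letters only, and binding was not measured here.

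Irf2, the antagonist of IRF1, moved little. Its brightest probe, A_51_P316523 (chr8:47932486-47932545), gave -1.53, -1.33 and -1.28 in MRL mice and -1.04, -1.20 and -0.96 in LPR mice. The groups did not overlap, but the gap between them was only 0.08, and 12.4% of all genes tested had every LPR value above every MRL value. The change was 0.32 (SE 0.12, 95% confidence interval 0.03 to 0.60) and did not pass (adjusted p = 0.137 in limma). The dimmer probe, A_55_P2737089 (chr8:47893357-47893416), lies 39.1 kb upstream in an Ensembl transcript and gave 0.35 (SE 0.16, adjusted p = 0.200). The 2 probes thus gave changes of like size, and the interval of the brightest leaves room for at most a 1.52-fold difference.

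The Irf2 promoter was the only one of the family with an ISRE core, that is GAAA, any 2 bases and GAAA again, on either strand. It overlaps a composite site (GGAA followed directly by GTGAAA) of the ETS factor PU.1 and an IRF, and a GAS core follows it. Capitals mark these cores in the window chr8:46739496-46739554 (plus strand, GRCm38.p6), where the composite begins 247 bases before the start, the ISRE core 241 and the GAS core 224:
Irf2: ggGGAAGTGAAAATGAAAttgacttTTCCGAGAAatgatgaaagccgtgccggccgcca
The ISRE core occurs in 3.44% and the composite in 0.225% of all promoters searched. Of the 8 IRF genes, 1 has an ISRE core and 3 (Irf1, Irf2 and Irf8) have a GAS core in 1 of their windows. Counted by gene in the same way, the shares among all 27025 genes were 3.99% for the ISRE core and 9.55% for the GAS core. The windows of Irf3, Irf4, Irf5, Irf7 and Irf9 hold none of the 3 motifs, which says only that these letters are not in these windows.

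Irf3 and Irf7 are the pair that switches on type I interferon genes. Irf3 is present in most cells before any stimulus. Its brightest probe, A_55_P2083939 (chr7:52257700-52257759), gave 3.92, 3.98 and 4.01 in MRL mice and 3.75, 4.04 and 3.80 in LPR mice. LPR 2 was the highest of the 6 mice and LPR 1 the lowest. The change was -0.11 (SE 0.12, 95% confidence interval -0.38 to 0.17, adjusted p = 0.561 in limma), and that of the dimmer probe A_55_P2745005 (chr7:52255810-52255869) was -0.01 (SE 0.13, adjusted p = 0.953). Both were close to the median of all tested probes, -0.14. The upper bound of the brightest probe's interval is a 1.12-fold rise and its lower bound 0.769 of the MRL level.

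Irf7, which unlike Irf3 is itself induced by interferon, rose 2.64-fold. Its brightest probe, A_55_P2744251 (chr7:148449104-148449163, minus strand), gave 1.42, 1.59 and 1.74 in MRL mice and 2.79, 3.13 and 3.04 in LPR mice. The lowest LPR value was 1.05 above the highest MRL value. The means were 1.58 ± 0.16 (SD, n = 3) and 2.99 ± 0.17 (SD, n = 3), with a change of 1.40 (SE 0.14, adjusted p = 0.000951 in limma). The dimmer probe, A_51_P421876 (chr7:148450664-148451014), whose 60 bases span 351 bases of the genome, gave 1.51 (SE 0.14, adjusted p = 0.000622). The 95% confidence intervals of Irf7 (1.08 to 1.73) and Irf3 (-0.38 to 0.17) did not overlap.

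Irf5, a factor downstream of Toll-like receptors in myeloid and B cells, passed with 1 of its 2 probes. The brightest, A_51_P346668 (chr6:29486901-29486960), gave -1.47, -2.33 and -2.01 in MRL mice and -0.87, -0.77 and -0.90 in LPR mice. MRL 1 lay closest to the LPR mice, and the groups were 0.56 apart. The change was 1.09 (SE 0.21, 2.13-fold, adjusted p = 0.0209 in limma). The other probe, A_55_P2739057 (chr6:29491799-29491858), is assigned to transcript variant 3, lies 4.90 kb downstream and gave -2.55, -3.00 and -2.94 in MRL mice and -2.58, -2.53 and -2.38 in LPR mice. Here LPR 1 lay below MRL 1, so the groups overlapped, and the change of 0.33 (SE 0.15) did not pass (adjusted p = 0.180). The intervals of the 2 changes, 0.58 to 1.60 and -0.02 to 0.68, overlapped, and the difference between the probes was not tested. The call of Irf5 was the one lost most often among the 6. It was lost without MRL 3 (adjusted p = 0.0676) and without LPR 1, LPR 2 or LPR 3 (adjusted p = 0.0592 to 0.0596), although the change stayed at 1.05 to 1.12. It was also lost in the methods' test on log2 values (adjusted p = 0.0934) and on linear values (adjusted p = 0.0588), with the slide row as a block (adjusted p = 0.148), with the first slide row alone (adjusted p = 0.182) and with no filter on dim probes (adjusted p = 0.0500).

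Irf9, the DNA-binding subunit of ISGF3, rose 2.31-fold with little spread. Its brightest probe, A_55_P2114938 (chr14:56228806-56228865), gave 0.71, 0.61 and 0.85 in MRL mice and 1.93, 2.00 and 1.87 in LPR mice. Every LPR value was at least 1.02 above every MRL value. The change was 1.21 (SE 0.11, adjusted p = 0.000621 in limma). The dimmer probe, A_51_P127367 (chr14:56228256-56228315), lies 550 bases upstream and is assigned to variant 3. It gave 1.16 (SE 0.13, 2.23-fold, adjusted p = 0.00165). Stat2, which encodes another subunit of ISGF3, rose 1.51-fold (log2 change 0.59, SE 0.12), with 1 of its 2 probes higher.

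Irf4, the factor that plasma cell differentiation requires, had the largest change of the 8 genes and the widest spread. Its brightest probe, A_55_P2109445 (chr13:30858532-30858591), gave -4.13, -3.57 and -4.64 in MRL mice and -1.36, -0.44 and -0.25 in LPR mice. In intensity units it was 28.4 to 59.9 against 368 to 636, so the MRL signal was dim but well above background on all 3 arrays. LPR 1 was the lowest of the LPR mice and still lay 2.22 above the highest MRL mouse. The means were -4.11 ± 0.53 (SD, n = 3) and -0.69 ± 0.59 (SD, n = 3), a 10.8-fold difference (log2 change 3.43, SE 0.36, adjusted p = 0.00133 in limma) with an interval from 5.96-fold to 19.5-fold. The dimmer probe, A_55_P2733572 (chr13:30856460-30856519), reached a signal well above background on all 3 LPR arrays but on 0 MRL arrays. The rise was therefore given as at least 6.18-fold. This bound takes for each MRL array the probe's own signal or, where higher, the dimmest signal well above background. The probe was thus bright enough to be tested through the LPR arrays alone. The adjusted p of 0.00159 in limma belongs to its change without the bound (2.79). On normexp-corrected intensities the changes were 2.32 for the brightest and 0.80 for the dimmer probe, both still called. Neither probe was called in the methods' test on linear values (adjusted p = 0.0904 for the brightest and 0.1168 for the dimmer).

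Markers of plasma cells, T cells and B cells differed between the groups as Irf4 did. All 4 plasma cell markers (Jchain, Mzb1, Tnfrsf17 and Sdc1) were higher in LPR mice, and their summed level was 2.34 to 4.34 in MRL mice and 46.1 to 92.7 in LPR mice. Tnfrsf17, the receptor of a plasma cell survival factor, stayed at background in every MRL mouse. Of 6 T cell markers, 5 were higher, and their sums were 2.46 to 2.86 in MRL mice and 8.21 to 9.62 in LPR mice. Of 5 B cell markers, 3 were higher and 1 (the brightest Ms4a1 probe) was lower, while the other Ms4a1 probe was higher. Cd22 did not pass, with 1 of its 3 tested probes higher. The sums of the 5 were 1.5 to 1.61 against 4.24 to 5.48. The part of these cells in the Irf4 change was not tested.

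Irf8, a factor of macrophages and dendritic cells, rose 2.98-fold. Its brightest probe, A_52_P354823 (chr8:123280324-123280383), gave 0.58, 0.93 and 1.13 in MRL mice and 2.48, 2.48 and 2.40 in LPR mice. The LPR values lay within 0.08 of each other and at least 1.27 above the MRL values. The change was 1.57 (SE 0.15, adjusted p = 0.000923 in limma). The dimmer probe, A_55_P2716756 (chr8:123267009-123267068), lies 13.3 kb upstream in an Ensembl transcript and gave -1.93, -1.96 and -1.04 in MRL mice and -0.02, 0.31 and 0.17 in LPR mice. MRL 3 stood above the other MRL mice, and the change was 1.80 (SE 0.26, 3.47-fold, adjusted p = 0.00554). Of 7 macrophage markers 6 were higher in LPR mice, and their sums were 34.9 to 42.4 in MRL mice and 128 to 135 in LPR mice. Of 6 dendritic cell markers 4 were higher, while their sums, 92.9 to 112 and 91.9 to 101, overlapped, being set by the bright Siglech probe, which did not pass. Xcr1, a marker of cross-presenting dendritic cells and 1 of these 4, stayed at background in every MRL mouse. It was tested through the LPR arrays alone, and its rise had a bound of only 1.34-fold. The part of these cells in the Irf8 change was not tested.

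A pair of GAS cores stands in the Irf8 promoter, beginning 171 and 153 bases before the start. They are shown in capitals in the window chr8:120736162-120736220 (plus strand, GRCm38.p6) for comparison with the single core of Irf1:
Irf8: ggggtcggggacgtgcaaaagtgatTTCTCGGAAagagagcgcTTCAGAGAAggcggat

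In the order of the changes, Irf4 (3.43) came before Irf1 (2.44), Irf8 (1.57), Irf7 (1.40), Irf9 (1.21), Irf5 (1.09), Irf2 (0.32) and Irf3 (-0.11). The 95% confidence intervals of neighbours in this order overlapped, except between Irf1 (2.12 to 2.76) and Irf8 (1.21 to 1.94). The interval of Irf5 (0.58 to 1.60), the last gene that passed, reached that of Irf2 (0.03 to 0.60), the next one. The 3 MRL arrays and LPR 1 lay in the first row of the slide, and LPR 2 and LPR 3 in the second row. With the row as a block, 5 IRF genes were higher, and with the first row alone, where LPR 1 stands for its group, 3 (Irf1, Irf7 and Irf9) were. In the first row alone the changes of Irf4 and Irf8 were 2.76 (adjusted p = 0.0580) and 1.60 (adjusted p = 0.0563).

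**Figure D2:**
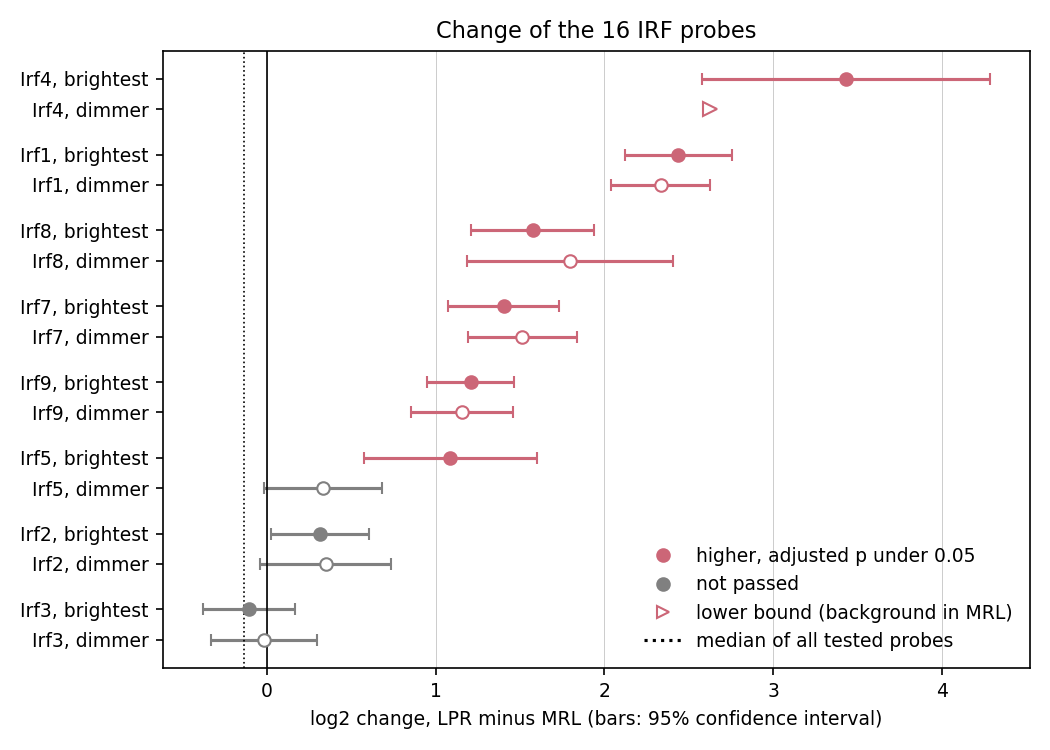
Log2 change (x axis, LPR minus MRL) of the 16 IRF probes, sorted by the brightest probe of each gene, with bars for the 95% confidence interval of limma. Red marks an adjusted p under 0.05. The triangle is the lower bound of the dimmer Irf4 probe, drawn without an interval. The probes of Irf2 and Irf3 and the dimmer Irf5 probe did not pass.

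The partner factors of IRFs were higher in 8 of 10 cases, and none was lower. The ETS factors that recruit IRF4 and IRF8 to composite sites were among them. Spib was 10.5-fold higher. Spi1, which encodes PU.1, was at background in every MRL mouse, and its rise had a bound of 5.15-fold. The BATF factors, which bind with IRF4 or IRF8 at AP-1 sites, rose 8.62-fold (Batf), 4.62-fold (Batf2) and 3.07-fold (Batf3). Ikzf1, a zinc finger factor of lymphocytes, rose 8.30-fold. Jun and Junb did not pass, with changes of -0.39 (SE 0.24) and 0.69 (SE 0.24), although 1 of the 2 tested Junb probes was higher. The median change of the list was 2.63, or 2.29 with Spi1 at its bound. Without LPR 2 and LPR 3 (the first slide row alone) 5 of the 10 were higher.

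The machinery that activates IRF3, IRF5 and IRF7 changed less. Of its 16 genes, 5 were higher and none was lower, with a median change of 0.16. Those that rose were Sting1 (3.49-fold), the adaptor of cytosolic DNA sensing, Cgas (1.83-fold), the sensor that feeds it, Ifih1 (2.20-fold), a sensor of double-stranded RNA, Tlr7 (1.62-fold), the endosomal receptor of single-stranded RNA, and Ikbke (2.47-fold), a kinase of IRF3 and IRF7. The array annotation names the first pair Tmem173 and Mb21d1. Cgas, Ifih1 and Ikbke have 2 probes each, of which only 1 was higher. The related kinase Tbk1 (change 0.06, SE 0.16), the adaptors Mavs (-0.18, SE 0.11), Ticam1 (-0.02, SE 0.13) and Myd88 (0.48, SE 0.13), and the receptors Tlr3 and Tlr9 did not pass. For Myd88 the adjusted p was 0.0513 in limma. The count of this list fell to 2 without MRL 1, to 3 without MRL 3 and to 1 without LPR 3. Of 4 regulators that bind IRFs, Trim21, a ubiquitin ligase and lupus autoantigen, was higher (1.88-fold), and Irf2bp1 and Irf2bp2, corepressors of IRF2, and their relative Irf2bpl did not pass, with changes between -0.03 and 0.04. The dimmer Irf2bp2 probe was lower.

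Among interferons and their receptor genes, 2 of 9 tested were higher. Ifng, the gene of interferon gamma, went from background in every MRL mouse to a clear signal in all 3 LPR mice, with a bound of 16.4-fold. It was thus bright enough to be tested through the LPR arrays alone. Ifngr2, a chain of its receptor, was 1.54-fold higher. Of the type I interferon genes only Ifna2, Ifnb1 and Ifna4 were listed. Ifna2 had a change of 0.01 (SE 0.27) and did not pass, and Ifnb1 and Ifna4 were too dim to be tested. The receptor chains Ifnar1 (-0.08, SE 0.12) and Ifnar2 (0.20, SE 0.10) and the kinases Jak1, Jak2 and Tyk2 did not pass, although 1 of the 2 Ifnar2 probes was higher.

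Target genes of IRF1 and interferon gamma had a larger median change than those of ISGF3 and IRF7. Of 23 genes in the first list, 21 were higher and none lower, with a median change of 2.55. They include Cxcl9, a chemokine for activated T cells (62.1-fold), the immunity-related GTPases Iigp1 (32.7-fold) and Igtp (16.7-fold), the guanylate-binding protein Gbp6 (23.2-fold), and Nlrc5 and Ciita, the transactivators of MHC class I and class II genes (log2 changes 4.01 and 3.46). The brightest Gbp5 probe (change -0.05, SE 0.12) and Il15 (0.03, SE 0.12) did not pass, while the other Gbp5 probe was higher. Of 21 genes in the second list, 16 were higher and none lower, with a median of 1.10, or 0.97 with Oas3 at its bound of 1.38-fold. Bst2, which tethers virions to the cell, rose 3.75-fold, Oas1a, which makes the activator of RNase L, 3.21-fold, and Isg15, a ubiquitin-like modifier, 2.74-fold. Mx1 was higher too, but only 1 MRL mouse had an Mx1 signal well above background. Ifit2 (-0.06, SE 0.21), Rsad2 (-0.02, SE 0.25), Ifi44 (0.32, SE 0.32), Cmpk2 (0.34, SE 0.11) and Eif2ak2 (-0.26, SE 0.24) did not pass. The difference between the medians of the 2 lists was not tested, and with the slide row as a block 10 genes of the second list were higher.

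**Figure D3:**
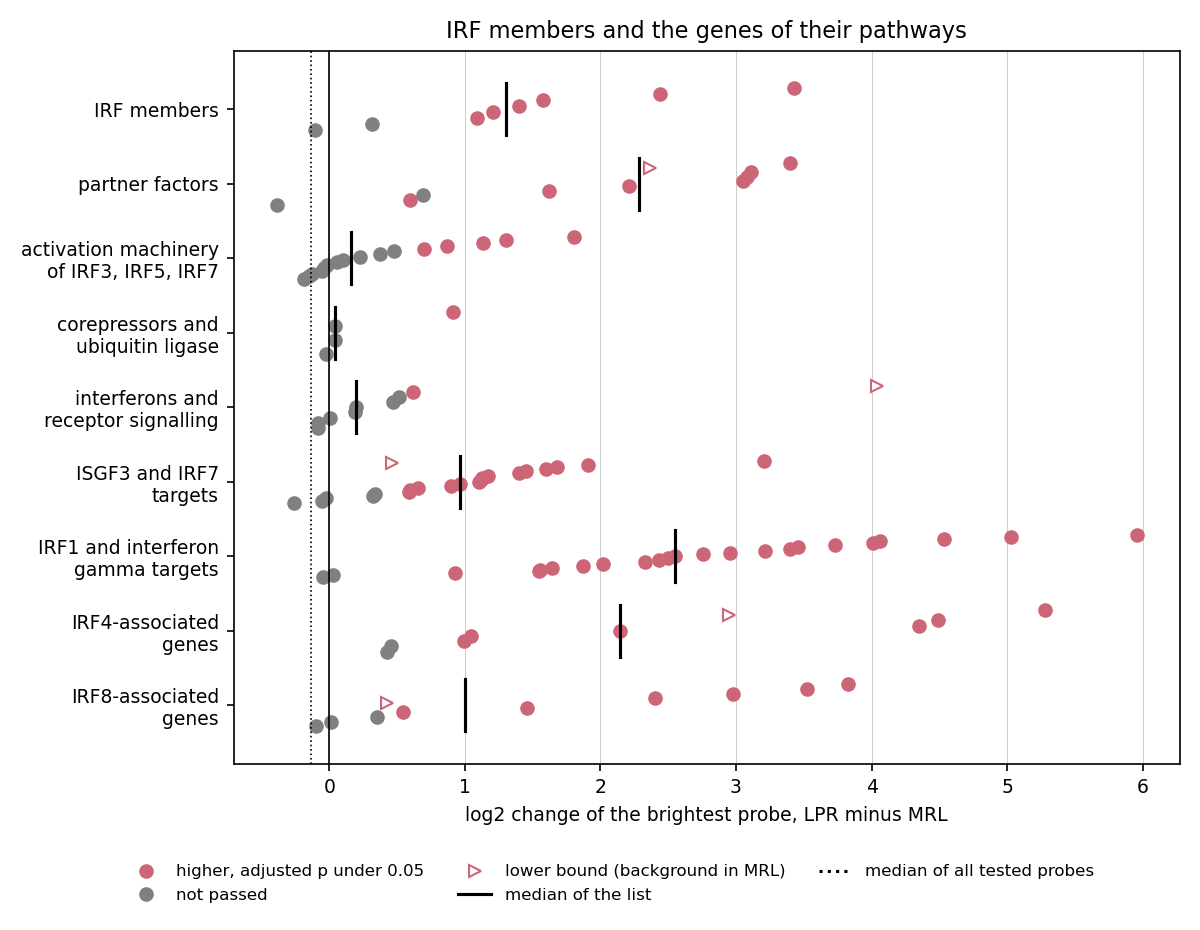
Log2 change of the brightest probe (x axis, LPR minus MRL) for the IRF members and the genes of 8 pathway lists, 1 point per gene. Red marks an adjusted p under 0.05, triangles are lower bounds, and short black lines are medians. The points of the IRF1 and interferon gamma targets reach furthest to the right, and most of the activation machinery lies near 0.

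Of the genes associated with IRF4, 7 of 9 tested were higher. Pou2af1, a B cell coactivator, rose 38.8-fold, Jchain, which links IgM and IgA subunits, 22.5-fold, Mzb1, a chaperone of antibody secretion, 20.4-fold, and Prdm1, the repressor that IRF4 induces in plasma cells, 4.43-fold. The rise of Tnfrsf17 had a bound of 7.72-fold. Xbp1 (0.42, SE 0.24) and Bcl6 (0.45, SE 0.25) did not pass. Of the genes associated with IRF8, 7 of 10 were higher, and 5 or 6 when a mouse was left out. Among all genes tested, 7.62% were higher. The genes that rose include Itgax (14.2-fold), an integrin of dendritic cells, and Ctss (11.5-fold), a protease of antigen processing. Cybb (7.89-fold), a subunit of the phagocyte oxidase, and Clec9a (5.30-fold), a receptor of cross-presenting dendritic cells, rose too. Xcr1 was counted as well, with a bound of 1.34-fold. Cst3, Zbtb46 and Siglech did not pass. The 2 Flt3 probes moved in opposite directions, the brightest up 2.74-fold. Of the 10 genes in each list, 4 of the IRF4 list and 7 of the IRF8 list are also in the marker lists of plasma cells, macrophages and dendritic cells, so that these counts restate the marker results in part.

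The ISRE core was common near the starts of the target genes, which were listed for being known targets. RefSeq promoters were at hand for 15 of the 21 ISGF3 and IRF7 targets, and 8 of the 15 held an ISRE core. Of the 23 IRF1 and interferon gamma targets 15 had a promoter, and 9 held the core. Among all 27025 genes of the table the share was 3.99%. The windows below show the core, with GAS cores where they fall in the window, in capitals. They are the genes with the largest changes that hold a core before the start, 3 from each list (Oas3, whose change is a bound, was left out), and Rsad2, which holds a core and did not pass. The first 3 are ISGF3 and IRF7 targets and the next 3 are IRF1 targets. All are written along the strand of the gene.
Bst2 (chr8:71537568-71537627, minus strand): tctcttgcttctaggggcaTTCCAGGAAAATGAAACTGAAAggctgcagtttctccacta
Oas1a (chr5:120907526-120907570, minus strand): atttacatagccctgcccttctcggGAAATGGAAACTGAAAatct
Isg15 (chr4:156200862-156200921, minus strand): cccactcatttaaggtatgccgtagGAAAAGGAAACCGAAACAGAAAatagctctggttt
Igtp (chr11:58199486-58199544, plus strand): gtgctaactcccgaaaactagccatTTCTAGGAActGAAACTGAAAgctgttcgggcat
Gbp2 (chr3:142620579-142620638, plus strand): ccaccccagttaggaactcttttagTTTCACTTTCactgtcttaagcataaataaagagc
Socs1 (chr16:10785585-10785644, minus strand): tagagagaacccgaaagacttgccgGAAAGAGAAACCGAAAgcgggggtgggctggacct
Rsad2 (chr12:26456538-26456597, minus strand): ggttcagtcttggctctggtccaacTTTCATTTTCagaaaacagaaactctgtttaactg

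In these windows the GAAA repeats of Bst2, Oas1a, Isg15 and Socs1 run on, so that more than 1 core overlaps, and Gbp2 and Rsad2 hold the core on the opposite strand. In Igtp, which rose 16.7-fold, a GAS core stands directly before the ISRE core. Most genes rose both with and without a core, and whether a core separates the genes that rose was not tested. The split leaves out the genes with no promoter in the table. These were 6 ISGF3 and IRF7 targets (6 higher) and 8 IRF1 targets (7 higher). Of the 8 ISGF3 and IRF7 targets with a core 6 were higher (all but Eif2ak2 and Rsad2), and of the 7 without one 4 were higher. Of the IRF1 targets, 8 of 9 with a core (all but Gbp5, judged by its brightest probe) and 6 of 6 without one were higher. Cxcl9, with the largest change of all list genes, held none of the motifs in its window.

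**Figure D4:**
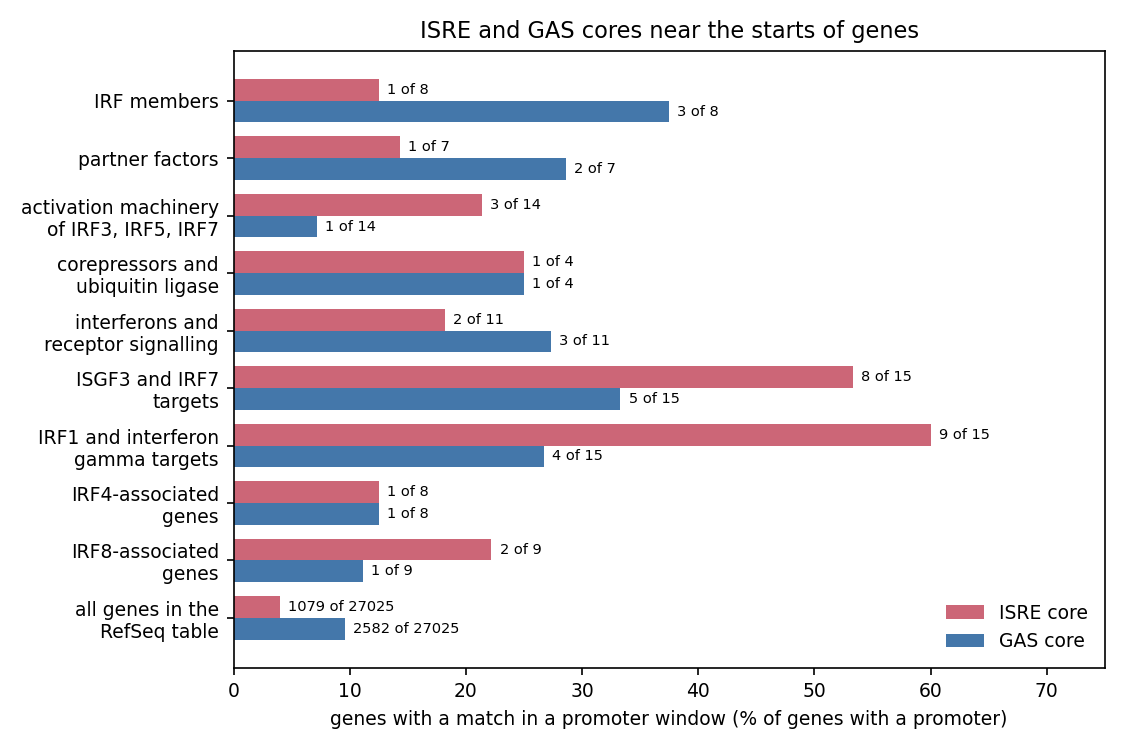
Share of genes (x axis, % of those with a promoter in the RefSeq table) with an ISRE core (red) or a GAS core (blue) in a promoter window, for the IRF members, 8 lists and all genes. Numbers beside the bars are counts, and the target lists have the longest red bars, 8 of 15 and 9 of 15.

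The genes whose pattern over the 6 mice was closest to each IRF were found by the distance between the centred values of their brightest probes, among 18292 genes well above background on all arrays. Those reported here are Arhgap25 and Cyth4 for Irf1, H2-Oa for Irf4, Onecut2 and Ly6f for Irf5, Limd2 and Flt3 for Irf7, Oas1f and Oas1a for Irf8, and Rgs19 and Rassf5 for Irf9. The distance was smallest for Irf3, whose neighbours Nelfe (0.04) and Abcf3 (0.05) likewise did not pass, and largest for Irf4, at 0.70 for H2-Oa. For Irf2 they were Mxra7 and Fblim1. H2-Oa is part of a regulator of MHC class II loading in B cells. Oas1a and Oas1f belong to the family of interferon-induced oligoadenylate synthetases. The distance includes the difference between the groups, so that near genes have like changes by construction.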

How the data were processed

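TA was performed on 6 kidneys, 3 of MRL and 3 of LPR mice, with 1 array of an Agilent SurePrint G3 mouse slide per kidney and groups taken from the labels. The study's methods name TRIzol for the RNA, and the labels name a column kit. The intensities were deposited as Feature Extraction 12.0.3.1 gave them, background-subtracted and not normalized between arrays. The authors also deposited normalized values, the ratio of each intensity to the 75th percentile of its array, control spots included, and these were used as an alternative. Probe positions are those of the files, in mm9, and no exon annotation of that build was used. The 8 symbols were matched to 11 RefSeq promoters of GRCm38.p6. Of the 16 IRF probes, 14 have an accession in the current RefSeq table, each with the same symbol.

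Here, control and outlier spots were left out, intensities were taken to log2, the 75th percentile of the 59305 non-control spots of each array was subtracted, and spots of 1 probe were averaged. Probes well above background on at least 3 of 6 arrays (39924 of 56605) were fitted with limma 3.58.1 in R 4.3.3 without covariates, with Benjamini-Hochberg adjustment over all of them. Intervals are 95% confidence intervals of limma. No spot was saturated, 69.6% to 73.5% of spots were well above background, and no IRF probe had an outlier spot. The number of arrays limits the precision, and an exact test of 3 against 3 cannot give a p below 0.1. The tests were tried on simulated data.

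The IRF members, the pathway and marker lists and the alternatives were chosen with earlier results of these data known. Named genes are the members, the list genes and, for each member, the 2 genes nearest in pattern (Euclidean distance of centred values). List genes are described by counts and medians, with no test of the list. A few list genes and nearest genes are counted but not reported by name. The methods' test is the study's 2-tailed test with equal variances, run on log2 and on linear values. Alternatives also covered background correction (normexp with an offset of 50), normalization, dim-probe filters, slide position, the replicate number, averaging a gene's probes and fits without 1 of the mice. Figures were drawn with matplotlib 3.10.9.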

Additional observations from a re-analysis of the deposited data

How the results depend on the processing

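The 6 calls of IRF genes were recomputed under 23 alternatives. Irf1, Irf7 and Irf9 were higher in each of them, Irf8 in 22, Irf4 in 21 and Irf5 in 14, and the count of IRF genes ranged from 3 to 6. It was 3 of 8 genes, and 6 of 16 probes, with the first slide row alone, a fit with 1 LPR array that is assumed to vary like the MRL arrays. Leaving out a mouse gave 5 or 6 genes and 10 or 11 probes. No IRF gene or probe was lower under any alternative. The dimmer Irf3 probe, at -0.01, turned positive with a percentile over detected probes (0.0146) and with the slide column as a block (0.0587), and ranged from -0.13 to 0.0813 when a mouse was left out, none of them called.

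Counts of list genes moved by over 1.5 times in the following cases. With the first slide row alone they were 5 for the partner factors, 3 for the activation machinery, 1 for interferons and receptors, 9 for ISGF3 and IRF7 targets and 3 for the IRF8 list. With the slide row as a block they were 3 for the activation machinery, 1 for interferons and receptors and 10 for ISGF3 and IRF7 targets, and with the slide column as a block 2 for the machinery and 1 for interferons and receptors. The methods' test gave 1 for the machinery and 10 for ISGF3 and IRF7 targets on log2 and on linear values, and on linear values 0 for the corepressors and ligase, 2 for the IRF4 list and 3 for the IRF8 list. Interferons and receptors gave 4 with normexp, with an intensity trend and with the mean of the probes. The machinery ranged from 1 to 5 when a mouse was left out. The cause was not tested.

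Over all probes, 2606 were higher and 2462 lower (51.4% higher among the calls). The range was 1116 to 2878 higher and 315 to 4498 lower. The lower count, from which the background shares of lower probes come, fell to 839 without MRL 1, 760 without MRL 2, 827 without MRL 3, 1503 without LPR 1 and 900 without LPR 3, and was 2269 without LPR 2, while 1958 to 2370 were higher in these fits. Among the scalings, the share of higher calls was 36% with normexp, 58.9% with a percentile over detected probes, 56.7% with a median shift and 52.2% with quantile normalization. The median change of all probes was -0.14, and -0.11 to -0.14 under these scalings.

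Deviations from the group means of mice with equal replicate numbers correlated at 0.115, 0.0203 and 0.00516. These deviations sum to 0 within each group of 3, which ties the correlations to each other. They therefore cannot decide whether the numbers pair the mice. With the replicate block, 6 IRF genes and 11 IRF probes were higher, as without it, while 2199 probes in all were higher and 1117 lower. Of the 3 numbers, not every mouse correlated best with its own.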
